A study of Mus musculus with 12 samples.

Results

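Mitochondrial ribosomal protein genes, whose mouse symbols begin with Mrpl (large subunit) or Mrps (small subunit) followed by a number, were examined in the whole brains of mice with 2, 1 or 0 intact copies of Slc6a20a, the gene of a plasma membrane transporter of proline and glycine. A gene was taken if the annotation calls it protein-coding and its mean over the 12 mice was at least 10 normalized counts. The rule gave 78 of the 19775 genes of the deposited table, 49 of the large and 29 of the small subunit. All 78 protein-coding genes of this name pattern in the annotation were in the table, and every one passed the minimum. Mrpl23-ps1, a processed pseudogene of Mrpl23, carries a matching symbol but is not protein-coding and was not a member.

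Mitochondria keep their own ribosome, which translates the few messenger RNAs encoded by mitochondrial DNA, all for subunits of the respiratory chain and ATP synthase. Its ribosomal RNAs come from mitochondrial DNA, but every protein of the ribosome is encoded in the nucleus, made in the cytosol and imported, so that a large set of scattered nuclear genes has to supply one particle in matching amounts. The small subunit holds the messenger RNA and decodes it, and the large subunit joins the amino acids. Some of the proteins descend from bacterial ribosomal proteins and others have no bacterial counterpart, and inherited defects in many of them cause disease of the brain, heart or liver.

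The mice were male C57BL/6N animals of about postnatal day 120, 4 each of wild type (WT), heterozygous Slc6a20a+/- (HT) and homozygous Slc6a20a-/- (HM) genotype, from crosses of heterozygous parents. The mutation removes exon 3 of Slc6a20a in all cells of the body, and the labels name no other allele and no treatment. Each sample was the whole brain of a separate mouse, so that fewer cells of a type and less RNA per cell cannot be told apart. The deposited values are read estimates per gene that were normalized between mice, here called normalized counts, and summed to between 3.33e+07 and 3.37e+07 per mouse. The best-fitting step of the low values put 1 read at 0.927 to 1.11 normalized counts, or 3.02e+07 to 3.60e+07 reads on genes per mouse, which is only approximate since most low values were no whole multiples of it. Slc6a20a itself averaged 679.3 ± 70.1 normalized counts (WT), 345 ± 29.1 (HT) and 64.5 ± 9.95 (HM; SD, n = 4), with no overlap between genotypes. Neuron, oligodendrocyte, astrocyte, microglia and endothelium markers were all present, the lowest of the 25 at a mean of 583 normalized counts.

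One library stood apart from the other 11. In WT replicate 1, genes with short transcripts were high and genes with long transcripts were low, with a slope of -0.060 on the log2 scale per doubling of transcript length, against -0.014 to 0.027 in the other mice. Genes with transcripts under 1 kb had a median deviation of 0.14 in this mouse and genes over 5 kb one of -0.094, both log2 differences from each gene's mean over all mice. The mitochondrial ribosomal protein genes have short transcripts, with a median of 1302 bases against 2848 for all genes tested, and 75 of the 78 lay above their own mean in WT replicate 1. It had the highest value of all mice for 37 of the 78 genes, and no other mouse for more than 8. The main counts and medians of the comparisons with WT are therefore also given without this mouse, as are the members whose calls depend on it.

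The 78 genes are spread over 17 chromosomes, with the most on chromosome 11, which holds 11 of them. The start of 19 genes (24.4%) lay within 1000 bases of the start of a protein-coding gene on the opposite strand that is read the other way, against 9.62% of the 15129 protein-coding genes that reached the same minimum (expressed protein-coding genes). Mrps12 shared such a region with Sars2, the mitochondrial seryl-tRNA synthetase, 172 bases away, and Mrpl36 with Ndufs6, a subunit of respiratory complex I, 29 bases away. Mrpl46 and Mrps11 lie on opposite strands and overlap each other. In all, 23 members (29.5%) overlapped a protein-coding gene on the opposite strand, against 20.05% of the expressed protein-coding genes. Whether the counting used strand was not given in the sources used here, so where exons overlap, as may occur in Mrpl19, Mrpl27, Mrpl33, Mrpl44, Mrpl47, Mrps18a, Mrps30 and Mrps34, the values are uncertain.

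RefSeq (GRCm38.p6) promoter windows, 250 bases before to 50 bases after a gene's start, were at hand for 69 members, 43 of the large and 26 of the small subunit. Mrpl13, Mrpl15, Mrpl19, Mrpl38, Mrpl4, Mrpl54, Mrps28, Mrps34 and Mrps35 were not among them. A gene with several starts counted as holding a motif if any of its windows did, and both strands were read. The core of the ETS factor motif, CCGGAA, occurred in 40 of the 69 (58.0%), against 28.1% of the expressed protein-coding genes and 14.9% of all 32851 windows. It was found in 58.1% of the large-subunit and 57.7% of the small-subunit genes. Of the 61 matches in members, 43 (70.5%) began within 50 bases of the start, against 51.1% in the other set of genes. The longer ETS form CCGGAAGT, which contains the core, was in 17.4% of members against 7.95% of those genes and 3.89% of all windows. AAGATGGC, a form of the YY1 motif, was in 17.4%, 4.65% and 2.75%, and GCATGCGC, part of the palindromic motif of NRF1, a regulator of nuclear genes for mitochondria, in 11.6%, 5.47% and 2.71%. GGGCGG, bound by SP1, was in 49.3% of members and 66.4% of those genes (35.7% of all windows), CCAAT, bound by NFY, in 39.1% and 42.5% (37.4%), and TATAAA, the TATA box, in 7.25% and 9.06% (13.6%). These are matches of letters, and no binding was measured.

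The 250 bases before the start are shown for 4 large-subunit genes that had among the lowest values in HT or HM relative to WT. They are also shown for the 3 paralogs Mrps18a, Mrps18b and Mrps18c. In both sets the genes differ in which of the motifs these bases hold. Capitals mark CCGGAA, GCATGCGC and AAGATGGC on either strand. The windows lie at chr5:31613701-31613950 (plus strand) for Mrpl33, chr6:83108858-83109107 (plus) for Mrpl53, chr11:120484387-120484636 (plus) for Mrpl12, chr7:142532782-142533031 (plus) for Mrpl23, chr17:46110754-46111003 (plus) for Mrps18a, chr17:35916441-35916690 (minus) for Mrps18b and chr5:100798509-100798758 (plus) for Mrps18c.
Mrpl33: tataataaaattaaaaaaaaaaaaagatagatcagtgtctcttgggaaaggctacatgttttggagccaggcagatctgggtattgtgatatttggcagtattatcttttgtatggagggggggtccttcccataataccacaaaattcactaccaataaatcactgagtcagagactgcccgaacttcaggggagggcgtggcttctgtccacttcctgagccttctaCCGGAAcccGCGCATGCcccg
Mrpl53: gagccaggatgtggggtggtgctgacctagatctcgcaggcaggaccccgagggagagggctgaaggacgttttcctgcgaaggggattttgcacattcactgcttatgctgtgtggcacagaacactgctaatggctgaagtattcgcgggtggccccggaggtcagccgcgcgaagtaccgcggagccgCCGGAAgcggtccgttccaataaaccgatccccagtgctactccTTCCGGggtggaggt
Mrpl12: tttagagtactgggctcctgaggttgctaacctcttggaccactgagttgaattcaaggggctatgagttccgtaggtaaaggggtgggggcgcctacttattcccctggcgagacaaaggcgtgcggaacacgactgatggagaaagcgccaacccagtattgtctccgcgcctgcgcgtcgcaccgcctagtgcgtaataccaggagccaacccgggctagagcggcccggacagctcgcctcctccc
Mrpl23: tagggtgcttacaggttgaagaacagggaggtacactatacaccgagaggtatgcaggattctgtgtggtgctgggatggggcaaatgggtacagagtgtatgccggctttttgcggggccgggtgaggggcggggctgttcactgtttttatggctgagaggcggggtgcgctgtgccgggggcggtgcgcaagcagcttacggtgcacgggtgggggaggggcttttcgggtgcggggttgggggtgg
Mrps18a: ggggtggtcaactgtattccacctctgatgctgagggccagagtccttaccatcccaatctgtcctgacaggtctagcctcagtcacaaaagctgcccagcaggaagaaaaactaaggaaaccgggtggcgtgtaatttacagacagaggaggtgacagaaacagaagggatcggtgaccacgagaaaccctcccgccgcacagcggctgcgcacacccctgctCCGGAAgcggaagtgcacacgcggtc
Mrps18b: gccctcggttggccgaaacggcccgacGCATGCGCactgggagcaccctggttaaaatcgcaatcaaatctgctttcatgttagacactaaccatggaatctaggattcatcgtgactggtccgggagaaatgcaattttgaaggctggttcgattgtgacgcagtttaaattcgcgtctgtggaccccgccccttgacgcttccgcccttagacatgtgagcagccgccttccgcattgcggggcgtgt
Mrps18c: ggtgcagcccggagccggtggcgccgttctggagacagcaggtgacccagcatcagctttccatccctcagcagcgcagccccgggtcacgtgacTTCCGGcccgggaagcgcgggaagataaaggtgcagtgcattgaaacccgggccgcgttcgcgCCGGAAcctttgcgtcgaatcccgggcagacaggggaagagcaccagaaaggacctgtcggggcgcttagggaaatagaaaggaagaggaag
Mrpl33 had the ETS core and the NRF1 letters close together near the end of the bases shown. Mrpl53 had the core on both strands. The bases shown for Mrpl12 and Mrpl23 held none of the 3 motifs. Among the paralogs, the bases shown held for Mrps18a 1 ETS core, for Mrps18b only the NRF1 letters and for Mrps18c 2 ETS cores, 1 of them in the longer form.

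Levels between genes were compared as normalized counts per kb of the principal transcript, as means over the 12 mice. The members ranged from 121.8 per kb (Mrpl17) to 1308 per kb (Mrpl41), with a median of 526 per kb, against 254 per kb for expressed protein-coding genes. The large-subunit genes had a median of 562 per kb and the small-subunit genes one of 460 per kb, and their interquartile ranges, 354 to 808 and 323 to 661 per kb, overlapped. Without division by length, the lowest mean was that of Mrpl23 with 149.2 normalized counts and the highest that of Mrpl3 with 2083.

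In the large subunit the highest levels per kb were those of Mrpl41, a protein without bacterial counterpart, Mrpl20, a homolog of a bacterial protein that binds ribosomal RNA early in assembly, and Mrpl42. Mrpl41 had 1139, 1055, 1033 and 989.9 normalized counts (WT), 1001, 1065, 1037 and 974.6 (HT) and 935.4, 1012, 941.1 and 999.2 (HM). Mrpl20 had 1093, 981, 937.7 and 1029 (WT), 976.5, 1040, 907.4 and 914.7 (HT) and 990.8, 919.6, 895.6 and 913.3 (HM). Mrpl42 had 834.8, 809.5, 800.3 and 840.3 (WT), 887.7, 780.8, 767.5 and 763.2 (HT) and 819.7, 759.3, 861.9 and 730.4 (HM). The genotypes overlapped for all 3 genes. The lowest large-subunit levels per kb were those of Mrpl17, Mrpl1 and Mrpl47, at 121.8, 131 and 133 per kb. Mrpl17 had 969.6, 842.7, 927.1 and 952.7 normalized counts (WT), 848, 794.9, 943.4 and 855.8 (HT) and 889.3, 862.8, 921.7 and 863.1 (HM). Mrpl47 had 421, 490.3, 433.9 and 539 (WT), 478.6, 466.2, 375.7 and 428.6 (HT) and 432.4, 427.3, 465.9 and 406.1 (HM). Again the genotypes overlapped.

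In the small subunit the highest levels per kb were those of Mrps21, a homolog of a bacterial small-subunit protein, and of Mrps34 and Mrps33, which have no bacterial counterpart. Mrps21 had 678, 637.9, 612.7 and 673.9 normalized counts (WT), 625.7, 596.8, 620.7 and 585.5 (HT) and 587.9, 617.8, 589.9 and 666.9 (HM). Mrps34 had 1199, 1047, 1026 and 1095 (WT), 1086, 974.9, 1111 and 1075 (HT) and 1003, 1042, 1107 and 1099 (HM). Mrps33 had 1387, 1217, 1344 and 1288 (WT), 1352, 1263, 1174 and 1229 (HT) and 1196, 1129, 1300 and 1201 (HM). None of the 3 separated the genotypes. The lowest were Mrps35, Mrps30 and Mrps16, at 139, 179 and 194 per kb. Mrps30, which structures place in the large subunit despite its name, had 616.3, 563.3, 560.7 and 570.8 normalized counts (WT), 622.1, 537.2, 588 and 604.5 (HT) and 590.4, 659.7, 648.1 and 577.4 (HM).

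**Figure D1:**
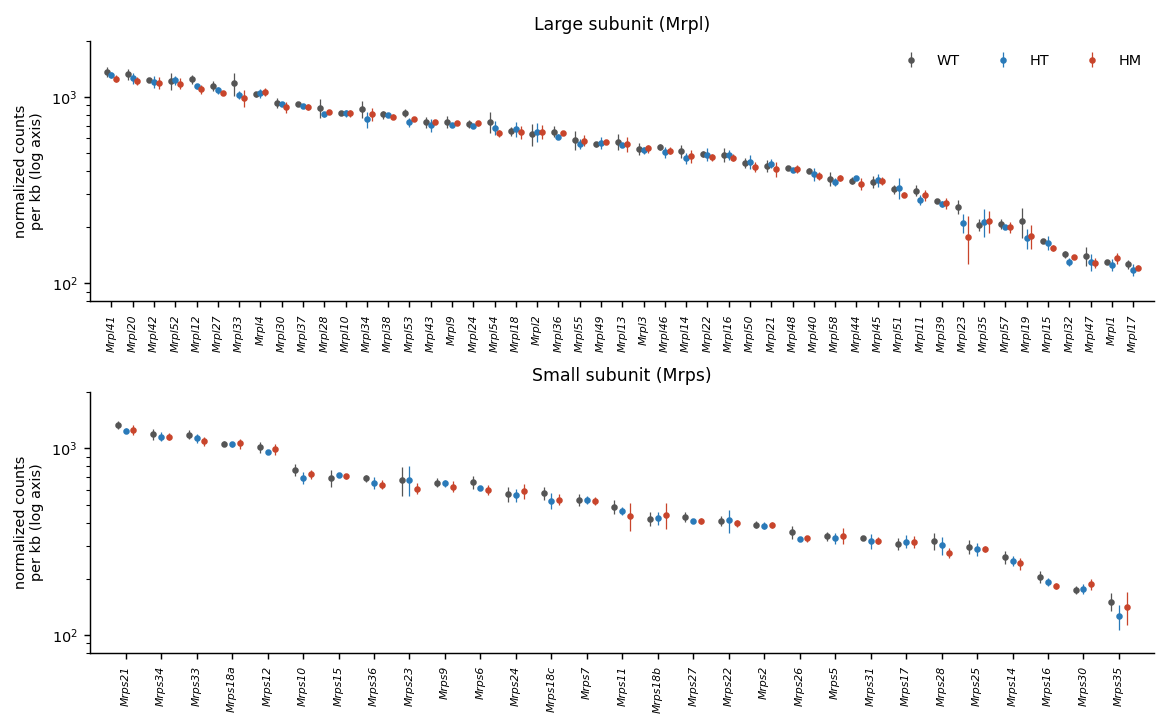
Level of each of the 78 genes in normalized counts per kb of the principal transcript on a log axis, by genotype, as the mean and SD of 4 mice, with large-subunit genes above and small-subunit genes below, each in order of level. The genes span 121.8 to 1308 per kb, and the 3 genotypes lie close together for nearly every gene.

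The order depends on the transcript taken for the length. The principal transcript of Mrpl17 has 7300 bases and the median of its 4 coding transcripts 743.5, and with the median its level was 1196 per kb, which is rank 15 instead of 78. Mrpl11 moved from rank 63 to rank 8 in the same way. The large-subunit median stayed above that of the small subunit, at 716 against 573 per kb. Mrpl20 (rank 3 and 2), Mrpl41 (1 and 5), Mrpl1 (77 and 77) and Mrpl47 (76 and 78) changed little, and 38 members have only 1 coding transcript.

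The members varied little between mice of a genotype. The SD of log2(normalized count + 1) within genotypes had a median of 0.086 over the 78 genes, against 0.10 for expressed protein-coding genes and 0.12 for all genes that reached the minimum. It was smallest for Mrpl37 (0.046) and largest for Mrpl23 (0.26), followed by Mrps35 and Mrps23 (both 0.23). The 3003 pairs of members had a median correlation of 0.20 over the 12 mice after each genotype's mean was taken out, and 70.6% of pairs were positive. The mean correlation was 0.18 among members and near 0 (8.86e-06) among all tested genes. Pairs within the large subunit (0.20), within the small subunit (0.18) and between them (0.19) had much the same median. All points of these correlations share the same 12 libraries, WT replicate 1 among them.

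In HT mice 62 of the 78 members had a log2 fold change below 0 relative to WT, with a median of -0.052, but no member passed the test. Log2 fold changes and their standard errors (SE) refer to log2(normalized count + 1), and the test was limma with Benjamini-Hochberg (BH) adjustment over the 18004 genes that reached the minimum in the 8 mice compared. The smallest adjusted p of a member was 0.770 (limma, BH), and 0.00555% of all genes passed. At an unadjusted p under 0.05, 7 members (8.97%) were lower and 0 were higher, against 3.26% and 3.16% of all genes, while 50% of all genes were below 0 and their median was 5.09e-05. With WT replicate 1 left out, the median of the members was -0.021, 48 were below 0, and 2 were lower and 1 was higher, against 3.4% and 2.65% of all genes. The count of lower members was 4 without HT replicate 2 and 2 without HT replicate 4.

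HM mice gave similar numbers against the same 4 WT mice. Again 62 members were below 0 and the median was -0.054, against 50.2% of all genes and a median of -2.90e-04. No member passed the adjusted test, as 0.0111% of all genes did, and the smallest adjusted p was 0.643 (limma, BH). At an unadjusted p under 0.05, 6 members (7.69%) were lower and 0 higher, against 3.05% and 3.93% of all genes. When WT replicate 1 was left out, the median was -0.036, 52 members were below 0, and 2 were lower and 0 higher, against 3.16% and 3.52% of all genes. The count of lower members was 10 without WT replicate 2 and 3 without HM replicate 1. Both comparisons with WT use the same WT mice, so their likeness is not independent.

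HM and HT mice lay close together, and no member passed the test between them. At an unadjusted p under 0.05, 0 members were lower and 0 higher, against 1.62% and 2.11% of 17986 genes, and 38 members were below 0, against 50.5% of all genes. The median was 0.0013, and 0 members passed the adjusted test (limma, BH), against 0.00556%. A p that misses the threshold does not show that HM and HT mice are alike: the 95% interval of Mrps18b, for example, reached from -0.17 to 0.27 on the log2 scale.

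**Figure D2:**
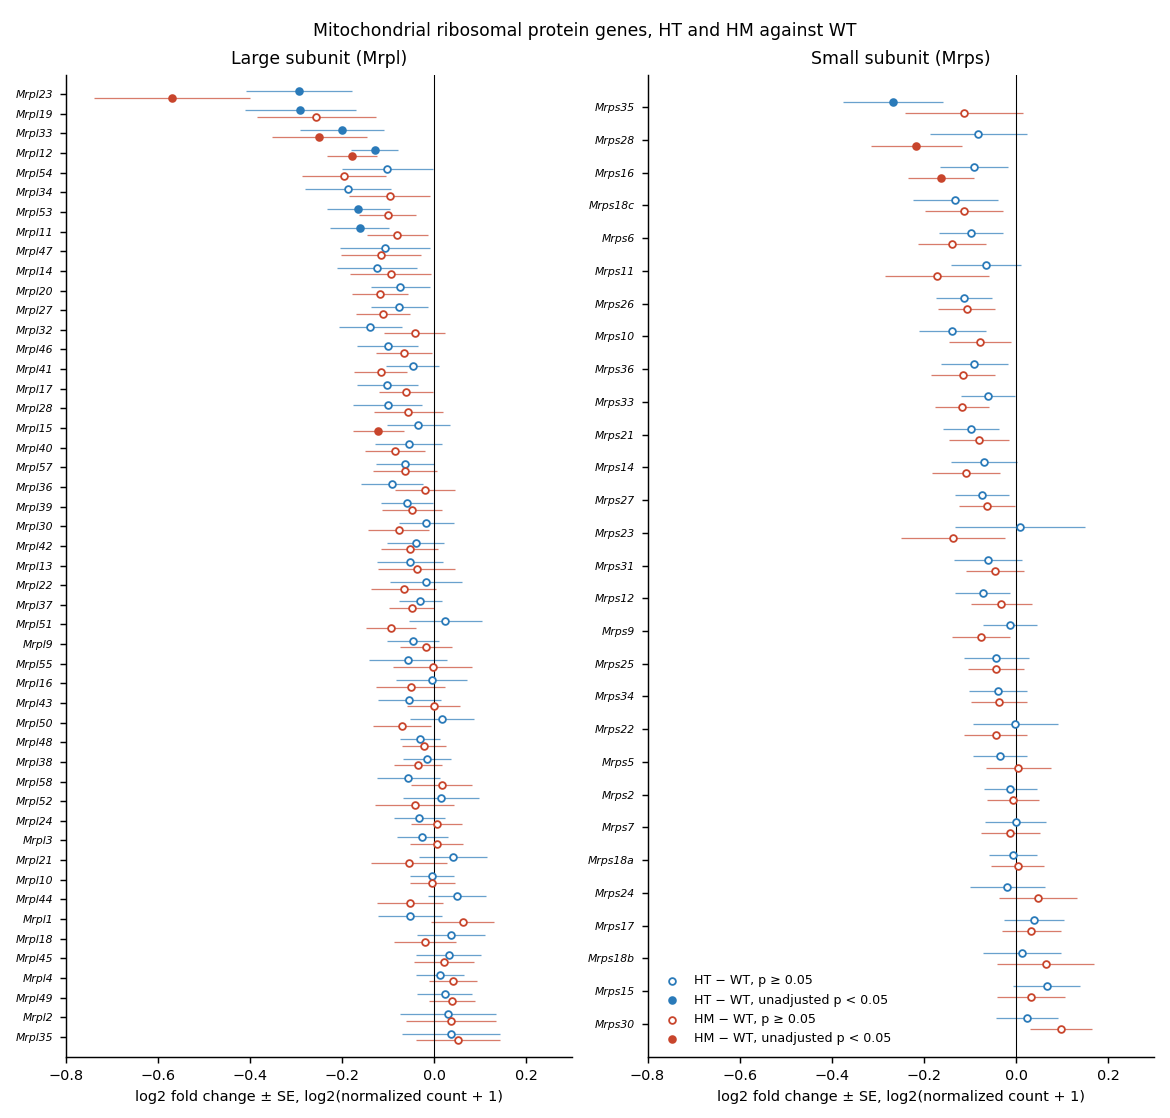
Log2 fold change with SE of each of the 78 genes in HT (blue) and HM (red) mice against the same 4 WT mice, large-subunit genes on the left and small-subunit genes on the right, in order of their mean change. Filled points have an unadjusted p under 0.05 (7 in HT, 6 in HM, all below 0), and most points of both subunits lie left of 0.

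The subunits had nearly the same medians. In HT mice the large-subunit genes had a median of -0.052 and the small-subunit genes one of -0.061, and in HM mice -0.053 and -0.063. For HM against HT mice the medians were 6e-04 and 0.0020. Of the 49 large-subunit genes 38 in HT and 40 in HM mice were below 0, and of the 29 small-subunit genes 24 and 22. Of all genes 50% and 50.2% were. Without WT replicate 1 the counts were 31 and 33 of the large-subunit and 17 and 19 of the small-subunit genes. At an unadjusted p under 0.05, 6 large-subunit genes and 1 small-subunit gene were lower in HT, and 4 and 2 in HM mice. Of all genes 3.26% and 3.05% were. Without WT replicate 1 these counts were 1 and 1 in HT and 2 and 0 in HM mice, against 3.4% and 3.16% of all genes. Leaving out WT replicate 1 gave medians of -0.018 and -0.028 in HT, and -0.035 and -0.042 in HM mice. When Mrps18a and Mrps30 were moved to the large subunit, where structures place them, and Mrps36 was left out, the medians of the 51 large- and 26 small-subunit genes were -0.047 and -0.061 in HT and -0.052 and -0.069 in HM mice.

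By origin, the 46 genes with a bacterial homolog had medians of -0.061 in HT and -0.058 in HM mice, and the 29 genes without one had medians of -0.043 and -0.052. Lower at an unadjusted p under 0.05 were 5 of the former and 2 of the latter in HT, and 6 and 0 in HM mice, against 3.26% and 3.05% of all genes. When WT replicate 1 was left out, the former had medians of -0.028 in both HT and HM mice and the latter of -0.018 and -0.039, and 1 and 1 were lower in HT, and 2 and 0 in HM mice. The medians of the former were -0.083 in HT and -0.091 in HM mice without WT replicate 2. The difference between these classes was not tested.

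By mouse, the mean deviation of the 78 genes from their own means was 0.13, -0.015, 0.012 and 0.036 in the WT mice. It was 0.027, -0.025, -0.032 and -0.036 in HT and -0.010, -0.029, -0.029 and -0.028 in HM mice, all on the log2 scale. WT replicate 1 was the highest of all mice, but WT replicate 2 lay among the HT and HM mice, so the genotypes overlapped. The large minus small difference of the mean deviations ranged from -0.039 in HM replicate 2 to 0.038 in HM replicate 3, which is as wide as the deviations of these mice themselves.

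**Figure D3:**
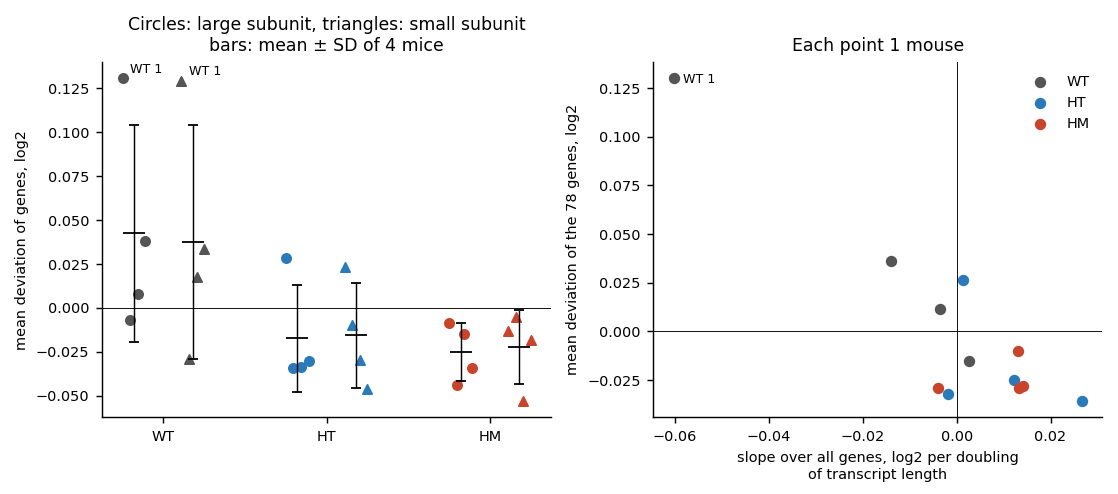
Left, mean deviation of the large-subunit (circles) and small-subunit (triangles) genes from their own means in each mouse on the log2 scale, with the mean and SD of 4 mice per genotype. Right, mean deviation of the 78 genes against the slope over all genes with transcript length, 1 point per mouse, where WT replicate 1 lies far from the others at a slope of -0.060 and a deviation of 0.13.

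Cytosolic ribosomal proteins and respiratory chain subunits, whose transcripts are also short, had the same pattern in WT replicate 1, with mean deviations of 0.19 and 0.18. Lower at an unadjusted p under 0.05 were 20 of the 81 cytosolic ribosomal protein genes in HT and 23 in HM mice, against 3.26% and 3.05% of all genes. Of the 82 nuclear-encoded respiratory chain genes tested, 8 and 16 were lower. Of the cytosolic ribosomal protein genes 11 were lower in each comparison without WT replicate 1 (3.4% and 3.16% of all genes). Of the respiratory chain genes 2 were then lower and 2 higher in HT, and 6 lower and 1 higher in HM mice. Of all genes 2.65% and 3.52% were then higher. The medians were -0.078 and -0.10 for the former and -0.043 and -0.066 for the latter. Leaving out WT replicate 1 gave -0.025 and -0.049 for the former, and 0.0051 and -0.024 for the latter. When the trend of each library with GC content and length of the transcripts was taken out, the mitochondrial ribosomal protein genes had a median of -0.029 in both HT and HM mice. Blocking on the leading digits of the animal numbers in the column names made it -0.026 in HT and -0.071 in HM mice. The sources used here do not give the meaning of these digits. Only mice that share them with a mouse of the other genotype bear on the difference in that fit. For HT these were all mice but WT replicate 1. For HM they were HM replicates 3 and 4 and WT replicates 1 and 2.

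**Figure D4:**
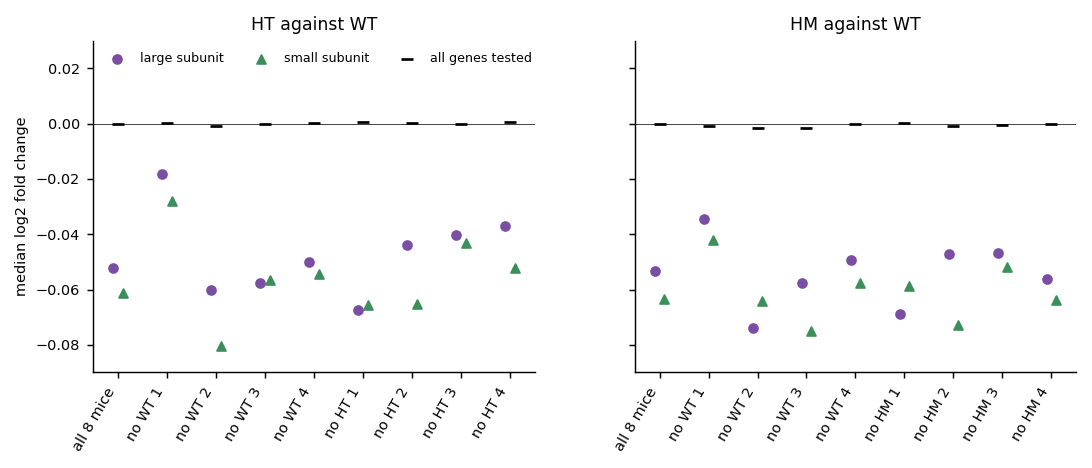
Median log2 fold change of large-subunit genes (circles), small-subunit genes (triangles) and all genes tested (dashes) with all 8 mice and with each mouse left out. Without WT replicate 1 the medians came closest to 0, at -0.018 and -0.028 in HT and -0.035 and -0.042 in HM mice, and in all fits they stayed below 0.

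Mrpl12, the protein of the flexible stalk of the large subunit that recruits translation factors, separated the genotypes from WT in both comparisons. It had 1768, 1579, 1583 and 1626 normalized counts (WT), 1517, 1439, 1546 and 1487 (HT) and 1548, 1462, 1372 and 1410 (HM). All HT and all HM values lay below all WT values, and HT and HM mice overlapped. The log2 fold change was -0.13 (SE 0.051, unadjusted p = 0.0249 by limma) in HT and -0.18 (SE 0.055, unadjusted p = 0.00644 by limma) in HM mice. In the fit without WT replicate 1 these values were -0.092 and -0.14, with unadjusted p of 0.0720 and 0.0185 (limma). Leaving out a mouse cannot undo a separation, so this fit does not test the separations. The HT call was also lost without HT replicate 2 and without HT replicate 4.

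Mrpl23, a protein at the exit of the tunnel through which the new chain leaves the ribosome, had the most negative fold change of the 78 genes in both comparisons. Its values were 181.5, 200.1, 169.5 and 163.3 normalized counts (WT), 165, 124.2, 147.5 and 146.7 (HT) and 126.9, 92.8, 171.2 and 101.9 (HM). The third HM mouse and the first HT mouse lay within the WT range. The log2 fold change was -0.29 (SE 0.12, unadjusted p = 0.0241 by limma) in HT and -0.57 (SE 0.17, unadjusted p = 0.00528 by limma) in HM mice. The fits without WT replicate 1 gave -0.28 and -0.56, and Mrps35 was then more negative in HT mice, at -0.33. The pseudogene Mrpl23-ps1 was listed at a mean of 453 normalized counts, above Mrpl23 itself, with log2 fold changes of -0.038 in HT and 2.88e-04 in HM mice. Reads of this pair could have been divided between them, so the values of Mrpl23 are uncertain. In HM mice, Mrpl23 and Mrpl12 were the only members with an unadjusted p under 0.05 in every fit that left out 1 mouse, with p up to 0.0185 and 0.0221 (limma). In HT mice there was none, and the HT call of Mrpl23 was lost without WT replicate 2 and without HT replicate 2.

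Mrpl33, a small homolog of a bacterial large-subunit protein, had 684.3, 516.9, 543.5 and 515.3 normalized counts (WT), 490.6, 503.2, 507 and 453.4 (HT) and 472.7, 487.9, 526.8 and 407.9 (HM). WT replicate 1 was far above the other WT mice. All HT mice lay below all WT mice. The log2 fold changes were -0.20 in HT and -0.25 in HM mice, with unadjusted p of 0.0449 and 0.0308 (limma). They came to -0.11 and -0.15 without WT replicate 1, with unadjusted p of 0.155 and 0.105 (limma). The HT call was lost in 6 of the 8 fits that left out 1 mouse, all but those without WT replicates 2 and 4. The HM call was also lost without HM replicate 1 and without HM replicate 4.

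**Figure D5:**
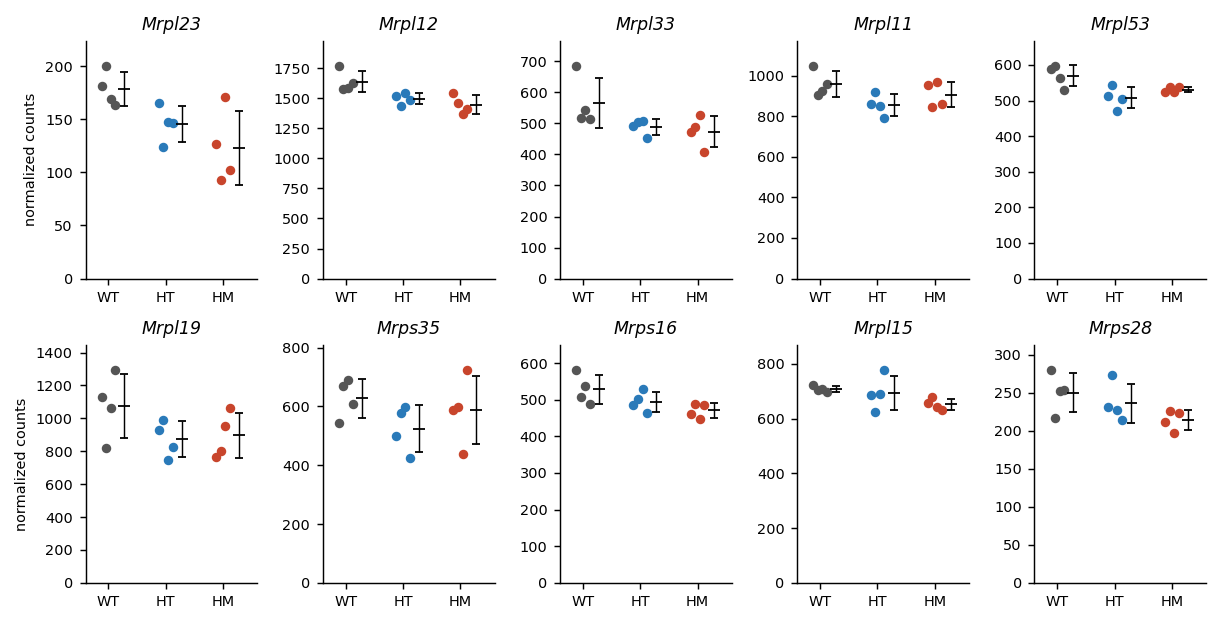
Normalized counts in each mouse for 10 genes that had an unadjusted p under 0.05 in HT or HM mice against WT, with the mean and SD of 4 mice per genotype beside the points and axes that start at 0. Mrpl12 separates both genotypes from WT, Mrpl33 has 1 high WT mouse at 684.3, and the groups overlap for Mrpl23, Mrpl11, Mrpl53, Mrpl19, Mrps35 and Mrps28 in both comparisons.

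Mrpl11, next to the stalk base, had 1046, 905.3, 922.6 and 958 normalized counts (WT), 862.1, 920.7, 851.1 and 790 (HT) and 951.2, 844.1, 969.3 and 860.6 (HM). The difference from WT was -0.16 on the log2 scale in HT mice (SE 0.065, unadjusted p = 0.0264 by limma), and -0.080 in HM mice. Mrpl53, which has no bacterial counterpart, had 588.6, 596.4, 563.4 and 530.4 (WT), 513.8, 543.4, 471 and 505.2 (HT) and 524.7, 537.8, 522.8 and 536.8 (HM). The difference from WT was -0.16 in HT mice (SE 0.069, unadjusted p = 0.0322 by limma) and -0.10 in HM mice, also on the log2 scale. For both genes 1 HT value reached into the WT range. The fit without WT replicate 1 gave Mrpl11 values of -0.12 in HT and -0.037 in HM mice, with an unadjusted p of 0.0813 in HT (limma), and Mrpl53 values of -0.15 and -0.085, with an unadjusted p of 0.0670 in HT (limma). The call of Mrpl11 was also lost without HT replicate 4, and that of Mrpl53 without WT replicate 2, HT replicate 3 or HT replicate 4.

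Mrpl19 and Mrps35 varied widely between mice of 1 genotype. Mrpl19 had 1132, 820.2, 1060 and 1292 normalized counts (WT), 930, 990.5, 744.6 and 827.4 (HT) and 767.6, 803.1, 954.9 and 1061 (HM), with a log2 fold change of -0.29 in HT (unadjusted p = 0.0315 by limma) and -0.26 in HM mice. The HT call was lost without WT replicate 1 (-0.26, unadjusted p = 0.0747 by limma) and also without WT replicate 3, WT replicate 4, HT replicate 3 or HT replicate 4. In HM mice Mrpl19 was at -0.23 without WT replicate 1. It was lower at an unadjusted p under 0.05 (limma) without WT replicate 2 or HM replicate 4. The direction turned, to 0.063, when the leading digits of the animal numbers were taken as a block. That fit compares only HM replicate 3 with WT replicate 1 and HM replicate 4 with WT replicate 2. Mrps35, a small-subunit protein without bacterial counterpart, had 542.9, 669.7, 691.4 and 608 (WT), 499, 577.6, 597.3 and 423.1 (HT) and 587.6, 598.6, 438.7 and 722.8 (HM). Its log2 fold change was -0.27 in HT (unadjusted p = 0.0284 by limma), -0.17 without HT replicate 4 and -0.33 without WT replicate 1, when all HT values lay below the WT values. The HT call of Mrps35 was lost without WT replicate 2, WT replicate 3, HT replicate 1 or HT replicate 4. Against WT the HM mice were at -0.11, and at -0.18 without WT replicate 1. Without HM replicate 3, the lowest HM mouse, the HM values lay slightly above WT on average. Both genes overlapped between the genotypes in all 8 mice.

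Mrps16, Mrpl15 and Mrps28 were lower at an unadjusted p under 0.05 in HM mice. Mrps16, a homolog of a bacterial protein needed for assembly of the small subunit, had 580.3, 506.5, 537.1 and 488.9 normalized counts (WT), 486.9, 500.8, 528.7 and 463.6 (HT) and 462.2, 488.3, 446.9 and 486.2 (HM). Its highest HM value, 488.3, was just below its lowest WT value, 488.9, and the log2 fold change was -0.16 (unadjusted p = 0.0412 by limma). Mrpl15, a large-subunit core protein, had 723.9, 705.3, 707.5 and 697.3 (WT), 684.7, 624.3, 688.9 and 776 (HT) and 657.9, 677.7, 640.8 and 629.8 (HM). All HM mice lay below all WT mice, at a log2 fold change of -0.12 (unadjusted p = 0.0460 by limma), while HT mice lay on both sides. Mrps28 had 279.2, 216.1, 252 and 253.2 (WT), 230.8, 272.8, 227.7 and 213.4 (HT) and 211.9, 226.4, 197.2 and 222.7 (HM), with a log2 fold change of -0.22 in HM mice (unadjusted p = 0.0469 by limma) and groups that overlapped. All 3 calls were lost without WT replicate 1, when the log2 fold changes were -0.12 for Mrps16, -0.11 for Mrpl15 and -0.16 for Mrps28, with unadjusted p of 0.120, 0.0790 and 0.134 (limma). The call of Mrps16 was also lost without WT replicate 3, HM replicate 1 or HM replicate 3, that of Mrpl15 in 7 of the 8 fits that left out 1 mouse, all but the fit without HM replicate 2, and that of Mrps28 in 6, all but those without WT replicate 2 and HM replicate 2.

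In all, 2 members were below WT in every HT mouse (Mrpl12 and Mrpl33), as were 1.91% of all genes, and 4 in every HM mouse (Mrpl12, Mrps16, Mrpl15 and Mrpl27), as were 1.81%. None was above WT in every HT or HM mouse, as 1.82% and 2.41% of all genes were. Between HM and HT mice 0 members were apart in either direction, against 1.14% lower and 1.24% higher of all genes. Mrpl27, near the site of peptide bond formation, had 942.1, 849.3, 819.4 and 841.9 normalized counts (WT), 853.8, 778.9, 847.7 and 792.9 (HT) and 793.1, 800.7, 817.5 and 780.5 (HM). Mrpl27 and Mrps15 are named here after their values were seen. Leaving out WT replicate 1 can only add such members, and Mrps35 was then also below WT in every HT mouse (3 members, 3.52% of all genes). The members in HM mice were the same 4 (3.29%). Mrps15 was then above WT in every HT and every HM mouse, and Mrps30 in every HM mouse, which made 1 member in HT (3.32% of all genes) and 2 in HM mice (4.02%). Mrps15, a homolog of a bacterial small-subunit protein, had 749.4, 616.4, 629.8 and 603.6 normalized counts (WT), 701.8, 662.8, 675.7 and 671.3 (HT) and 653.1, 647.1, 696.7 and 654.1 (HM), and only WT replicate 1 was above the other genotypes. A separation of 4 mice from 4 has an exact permutation p of 0.0286, the smallest that this design allows.

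Among the other members with the smallest p, Mrpl34 had 573.1, 520.3, 552.8 and 447.7 normalized counts (WT), 396.5, 464.8, 476.8 and 499 (HT) and 464.3, 490.5, 456.8 and 542.6 (HM). Mrpl54 had 516.9, 387.2, 411.8 and 463 (WT), 429.8, 439, 425.3 and 358.5 (HT) and 386.2, 390.4, 403.7 and 364.4 (HM). Their groups overlapped. The log2 fold change was -0.19 for Mrpl34 in HT mice, with an unadjusted p of 0.0643 (limma). In HM mice it was -0.20 for Mrpl54 and -0.12 for Mrpl41, with unadjusted p of 0.0518 and 0.0664 (limma). Without WT replicate 1 these values were -0.14 for Mrpl34, -0.12 for Mrpl54 and -0.078 for Mrpl41. Other left-out mice brought calls at an unadjusted p under 0.05 (limma). Mrpl34 was lower in HT mice without WT replicate 4 (-0.26) or HT replicate 4. In HM mice Mrpl54 was lower without WT replicate 2 (-0.26) or WT replicate 3, and Mrpl41 without WT replicate 4 (-0.15). Between HM and HT mice the 4 members with the smallest p were Mrpl23, Mrpl44, Mrpl51 and Mrpl1, with log2 fold changes of -0.28, -0.10, -0.12 and 0.11 and unadjusted p of 0.139 to 0.147 (limma). Mrpl44, with a ribonuclease-like fold, had 499.5, 477.4, 519.7 and 527.5 (WT), 512.9, 522.6, 516 and 543 (HT) and 537.8, 485.6, 471.9 and 458.7 (HM). Mrpl51 had 1162, 1093, 1018 and 1107 (WT), 1333, 1008, 1056 and 1077 (HT) and 995.7, 1066, 1014 and 1023 (HM), and its first HT mouse stood above the rest. Mrpl1, of the stalk at the exit side for transfer RNA, had 470.3, 465, 467.2 and 453.8 (WT), 476.5, 471.1, 435.7 and 409.6 (HT) and 462.4, 486.1, 459.9 and 532.6 (HM).

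The 3 paralogs of bacterial S18 differed in level and showed no difference by genotype that passed the test. Mrps18a, found in the large subunit, had 1059 normalized counts per kb, against 427 for Mrps18b and 543 for Mrps18c, both of the small subunit. Mrps18a had 959.6, 911.9, 915.2 and 958.2 normalized counts (WT), 932.3, 937.9, 961.9 and 895.7 (HT) and 996.5, 963.7, 862.1 and 934.8 (HM). Mrps18b had 477, 394, 455.3 and 480.2 (WT), 502.1, 465.8, 434.8 and 418.8 (HT) and 424.1, 423.2, 582.7 and 469.6 (HM). Mrps18c had 397.6, 324.8, 367.7 and 375 (WT), 322.9, 374.4, 295.9 and 344.4 (HT) and 358.7, 324.9, 312.8 and 356.3 (HM). The genotypes overlapped for each. In HM mice the 95% intervals of the log2 fold change reached from -0.12 to 0.13 for Mrps18a, from -0.16 to 0.29 for Mrps18b and from -0.30 to 0.071 for Mrps18c.

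Mrpl58, a hydrolase built into the large subunit that can free stalled chains, had 1021, 978, 831.8 and 946.6 normalized counts (WT), 910.2, 900.6, 959.9 and 853.7 (HT) and 980.8, 903.3, 983.4 and 942.8 (HM). Mrps12, of the decoding site, had 948, 883.8, 816.8 and 927.9 (WT), 832.6, 838.7, 862.1 and 861.4 (HT) and 881.8, 949.4, 809.6 and 856.2 (HM). Mrps36, which carries the name but belongs to the 2-oxoglutarate dehydrogenase complex, had 496.4, 455.6, 488.6 and 501.6 (WT), 490.7, 481.1, 420.1 and 434.7 (HT) and 475.8, 463.1, 436.2 and 417.9 (HM). The groups of all 3 genes overlapped in both comparisons. The members above 0 had log2 fold changes of at most 0.066 in HT (Mrps15) and 0.098 in HM mice (Mrps30). None of the 16 in either comparison had an unadjusted p under 0.05. Without WT replicate 1, Mrps15 was at 0.14 in HT mice, with an unadjusted p of 0.0385 (limma). Mrps30 was then at 0.13 in HM mice, with an unadjusted p of 0.0850 (limma).

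The other genes of mitochondrial translation also gave no adjusted call (limma, BH). Their calls below are at an unadjusted p under 0.05, where 3.26% of all genes were lower in HT and 3.05% in HM mice, so that 1 call in a list of 14 or 25 genes lies near the share of all genes. All 5 mitochondrial ribosomal proteins with other names (Dap3, Ptcd3, Gadd45gip1, Chchd1 and Aurkaip1) were below 0 in both comparisons, and Chchd1 was lower at an unadjusted p under 0.05 in both, at 490.3 ± 60.4 normalized counts (WT), 410.0 ± 15.9 (HT) and 424 ± 25.03 (HM; SD, n = 4). Of 14 translation factors and messenger RNA partners, 1 was lower in HT mice (Tsfm, the exchange factor of the elongation factor, log2 fold change -0.21). In HM mice 1 was lower (Slirp, a partner of Lrpprc in keeping mitochondrial messenger RNAs, -0.23) and 1 higher (Tufm, the elongation factor itself, 0.13, with all HM above all WT mice). Of 25 genes of assembly and ribosomal RNA modification, 1 was lower in HT (Malsu1, an assembly factor of the large subunit, -0.26) and 1 in HM mice (Mrm1, a methyltransferase of ribosomal RNA, -0.30). Between HM and HT mice Tsfm (0.23) and Nsun4 (0.16), a ribosomal RNA methyltransferase with a part in assembly, were higher in HM mice. Nars2 (-0.21) and Yars2 (-0.16), both aminoacyl-tRNA synthetases, were lower. Of all genes 2.11% were higher and 1.62% lower. Of the 8 fits that left out 1 mouse, the call was lost in 2 for Tsfm, 5 for Nsun4, 3 for Nars2 and 4 for Yars2. Without WT replicate 1 the calls of Chchd1 and Slirp in HM and of Malsu1 in HT mice were lost. In all, that of Chchd1 was lost in 5 of the 8 fits that left out 1 mouse, that of Slirp in 4 and that of Malsu1 in 3. The median of the translation factors in HM mice turned from 0.022 to -0.0075 without WT replicate 1. Mrm1 was not called without WT replicate 2, nor Tufm without HM replicate 1, nor Tsfm in HT mice without WT replicate 2 or HT replicate 2.

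Of 21 mitochondrial aminoacyl-tRNA synthetases, which load transfer RNAs with amino acids, 2 were lower in HT mice (Lars2 and Hars2) and 4 in HM mice (Lars2, Hars2, Nars2 and Yars2), and 0 were higher. These calls against WT held in each fit that left out 1 mouse. Hars2 had 1007 ± 55.95 normalized counts (WT), 862 ± 23.1 (HT) and 873 ± 69.3 (HM; SD, n = 4). Lars2 had a mean of 19210.5 over all mice, against 2056 for the next synthetase, Iars2, and whether other transcripts add to its reads was not tested, so its value is uncertain. Of the 13 mitochondrially encoded messenger RNAs, which this ribosome translates, 3 were lower in HT (mt-Co2, mt-Atp6 and mt-Co3) and 1 in HM mice (mt-Co3), with wide spread, as mt-Co2 had 34697 ± 24602 normalized counts (WT) and 11862 ± 3255 (HT; SD, n = 4). Between HM and HT mice, mt-Co2 (log2 fold change 1.23, unadjusted p = 3.69e-04) and mt-Atp6 (0.39, unadjusted p = 2.88e-04 by limma) were higher in HM mice, with adjusted p of 0.474 and 0.456. Both of these calls at an unadjusted p held with each mouse left out. Against WT, the HT call of mt-Co3 was lost in 4 of the 8 fits that left out 1 mouse and its HM call in 6. The fit without WT replicate 1 was among these for both calls. The HT call of mt-Co2 was lost without WT replicate 3 or HT replicate 3.

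Markers of parts of the brain varied between mice, and the olfactory bulb sum of every HM mouse was above those of all WT and HT mice. The summed level of the 8 olfactory bulb markers was 953 to 1225 normalized counts in WT, 849 to 1142 in HT and 1323 to 2015 in HM mice, and that of 5 erythrocyte genes 7780 to 21983.5, 6495 to 8717 and 5859 to 29022.5. Of 6 choroid plexus markers it was 15109 to 19621, 12352 to 19988 and 9700 to 17748. The erythrocyte and choroid plexus sums overlapped between genotypes. Their part in the values of the mitochondrial ribosomal protein genes was not tested.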

How the data were processed

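RNA was sequenced from the whole brain of 12 mice, 4 per genotype. According to the study's methods and the submitters' processing notes, the authors quantified reads from poly-A-selected libraries with Salmon 1.1.0 against GRCm38 with a GC bias correction, summed transcripts to genes and normalized with DESeq2 1.30.1. The processing notes name R 4.1.1, and the study's methods an older version. The deposited signal is 1 table of these normalized counts, which are not whole reads. Only 7.7% to 33.4% of low values were whole multiples (tolerance 0.02) of the step that fitted best, so whole reads were not recovered and no count test was run. Strand use in the counting was not given in the sources used here.

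Values were taken as log2(value + 1), and genes with a mean of at least 10 over the mice compared were fitted with limma 3.58.1 (R 4.3.3; moderated, variance prior following the mean, two-sided) for each pair of genotypes alone, with BH adjustment over all genes and a threshold of 0.05. The script was tested on simulated data. Of 19775 gene IDs, 19758 matched the GENCODE M21 annotation (GRCm38), from which lengths, positions and neighbours were taken. The principal transcript gave each gene's length. Python 3.11.15, pandas 2.3.3, numpy 2.4.6 and scipy 1.17.1 were used for the rest.

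The members and the gene lists were chosen with earlier results of these data known. Named with their values were the 8 members with the smallest p in each comparison with WT, the 4 in HM against HT mice, the 3 highest and 3 lowest per kb in each subunit, members chosen for their role (Mrpl12, Mrpl58, Mrps12, Mrps36 and the Mrps18 paralogs) and, of the other lists, genes past an unadjusted p of 0.05. Alternatives were another pseudocount (0.1), filter, fit over all mice, blocks, quantile normalization, correction for transcript length and GC content (loess, span 0.4), a variance prior without trend, subunits by structure, and leaving out each mouse. Same-numbered mice of different genotypes had correlations of their deviations between -0.076 and 0.098. Pairs with different numbers reached from -0.11 to 0.12, so no pairing by number was seen. With 4 mice per genotype this cannot show that there was none.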

Additional observations from a re-analysis of the deposited data

Results flagged for a closer look

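A mouse that lay far from the other 3 of its genotype by Dixon's criterion occurred in 5 of 102 groups of 4 mice examined, and chance gives about 1 in 20. Mrpl33 had 684.3 normalized counts in WT replicate 1, above the other WT mice at 515.3 to 543.5. Mrpl42 had 887.7 in HT replicate 1, against 763.2 to 780.8 in the other HT mice. Mrpl54 had 358.5 in HT replicate 4, against 425.3 to 439 in the others. The mean deviation of the 78 genes was -0.010 in HM replicate 1 on the log2 scale, against -0.029 to -0.028 in the other HM mice. For the large-subunit genes alone it was 0.029 in HT replicate 1, against -0.034 to -0.030 in the other HT mice.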

How the results depend on the processing

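No member passed the adjusted threshold in any comparison under any alternative. There was no such call to lose, so this says nothing of stability. The counts at an unadjusted p under 0.05 moved most. Leaving out 1 mouse at a time gave 2 to 7 lower and 0 to 1 higher members in HT, and 2 to 10 lower members in HM mice, against WT, and 0 to 1 lower and 0 to 1 higher members between HM and HT mice. Blocking on the leading digits of the animal numbers gave 3 lower members and 1 higher in HT, and 6 lower and 1 higher in HM mice. Between HM and HT mice that fit rests on HM replicate 4 against HT replicates 1 and 2 alone, so its calls are not given. There the large minus small subunit median became -0.044 on the log2 scale. Quantile normalization gave 3 lower members in HM mice. The cause of these moves was not tested, except that left-out mice and the block on animal numbers leave fewer samples. Correction for transcript length and GC content gave 5 lower members in HT and 4 in HM mice. No pairing of the mice by replicate number was seen. With the replicate block 7 members were lower in HT, 4 in HM and 0 between HM and HT mice. The count tests on whole reads were not run, since whole reads could not be recovered.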
